A study of Caenorhabditis elegans with 6 samples.

Results

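The microRNAs (miRNAs) miR-72, miR-73 and miR-74 of Caenorhabditis elegans were taken by name, as the 12 spots whose printed target is one of the 3. Each is measured by 1 oligo printed as 4 spots, and together they are 3 of the 108 miRNA oligos on the array. All 6 arrays were used. They hold fem-3(q20ts) and fem-2(b245ts), both temperature-sensitive, grown at 25 °C and collected as adults of day 1, 24 hours after late L4. In each genotype, biological replicate 1 was hybridised on 2 technical arrays and biological replicate 2 on a single array, which makes n = 2 for every genotype mean below. Whole animals were used, and therefore germ line and somatic tissues are pooled in every value.

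A miRNA guides an Argonaute protein to messenger RNAs that pair with its seed, the bases near its 5′ end, and miRNAs that share a seed can act on the same targets. As background, miR-72, miR-73 and miR-74 are grouped by their seed, which they share with miR-31 of flies and mammals. Most single miRNA genes of this worm can be deleted without loss of viability, which is one reason for studying such families together. At the restrictive temperature fem-3(q20ts), a gain-of-function allele in the sex determination pathway, gives a germ line that makes sperm only. fem-2(b245ts), a loss-of-function allele in the same pathway, gives one that makes oocytes only. The comparison asks which miRNAs differ in abundance between such animals.

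In the WBcel235 annotation of RefSeq, mir-72 lies on chromosome II with 0 other miRNA genes within 10 kb. mir-73 and mir-74 are neighbours on chromosome X, and mir-75 is the third miRNA gene within 10 kb of them. No source used here gives the bases of the probes, so signal from a related family member on the same oligo cannot be told apart from the named miRNA.

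All 3 miRNAs were measured well above the blank spots on every array. The mean of the 4 spots was 3.89 to 98.6 times the 95th percentile of the array's own 32 Buffer spots, which itself ranged from 19.0 to 127. On the 4 arrays with scanner values, the signal-to-noise score of the member spots was 3.03 to 205, and the share of saturated pixels was 0% in all of them. The 4 spots of a member had a coefficient of variation of 3.03% to 29.5% on an array. The intensities are linear values that the authors scaled to one total per array. A difference between oligos in this intensity need not be a difference in abundance, so each miRNA is compared only with itself.

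All 3 had lower mean signal in fem-3(q20ts), at 0.708 to 0.787 times that in fem-2(b245ts), and none of these differences passed the test across miRNAs. miR-72 had an intensity of 1828 and 1631 on the arrays of fem-3(q20ts) replicate 1 and 1574 on that of replicate 2. In fem-2(b245ts) it was 2461 and 1728 on the arrays of replicate 1 and 2116 on that of replicate 2. The arrays of the genotypes overlap, because the first fem-3(q20ts) array lies above the second fem-2(b245ts) array of replicate 1. Once the technical arrays were averaged they did not overlap: the replicates stood at 1730 and 1574 in fem-3(q20ts) and at 2095 and 2116 in fem-2(b245ts).

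miR-73 had an intensity of 1259 and 866 on the arrays of fem-3(q20ts) replicate 1 and 940 on that of replicate 2. In fem-2(b245ts) it was 1731 and 1249 on the arrays of replicate 1 and 1283 on that of replicate 2. Here too a single fem-3(q20ts) array, the first, lay above the lowest fem-2(b245ts) array. The biological replicates were apart, at 1062 and 940 in fem-3(q20ts) and at 1490 and 1283 in fem-2(b245ts).

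miR-74, the dimmest of the 3 oligos, was the one whose arrays did not overlap. It had an intensity of 312 and 382 on the arrays of fem-3(q20ts) replicate 1 and 305 on that of replicate 2. In fem-2(b245ts) it was 504 and 442 on the arrays of replicate 1 and 441 on that of replicate 2. All 3 fem-3(q20ts) arrays were thus below all 3 fem-2(b245ts) arrays.

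**Figure D1:**
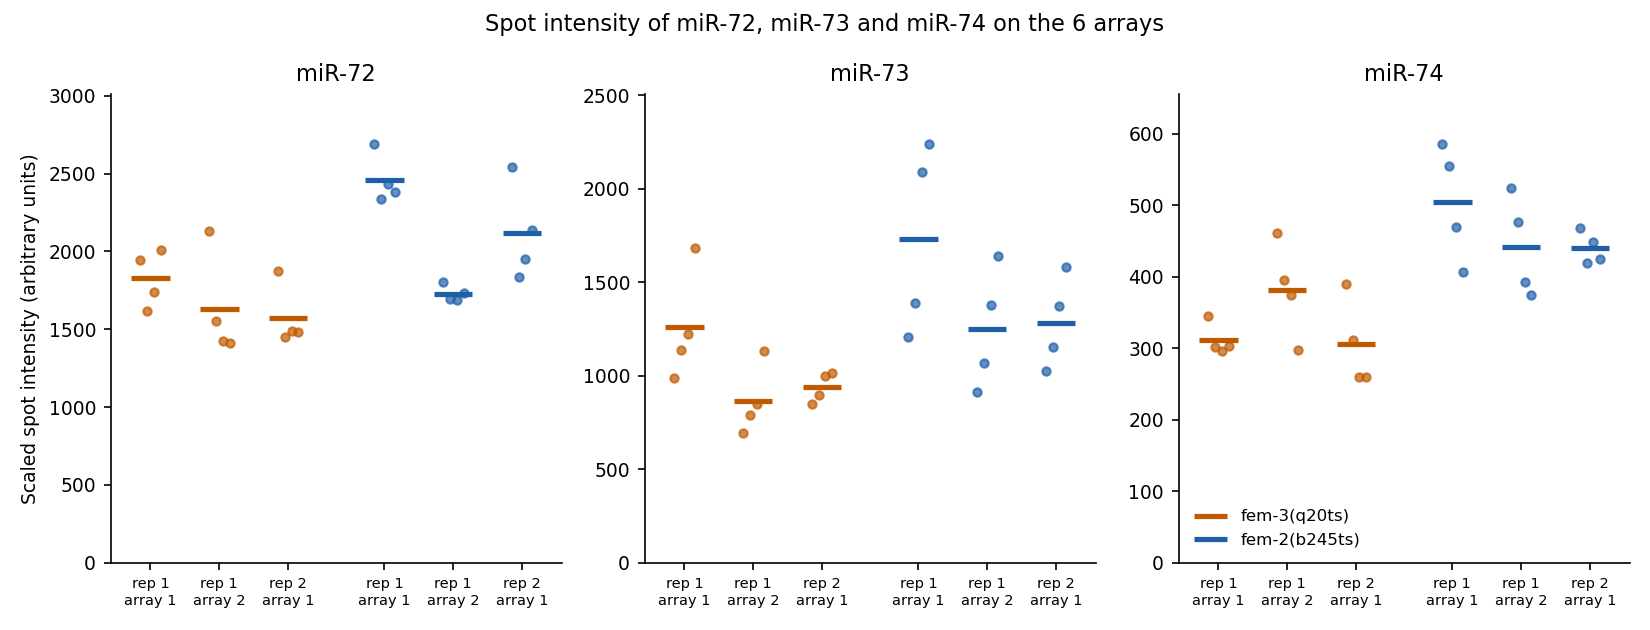
Scaled spot intensity (y axis, linear, from 0) of miR-72, miR-73 and miR-74 on the arrays (x axis), with fem-3(q20ts) in orange and fem-2(b245ts) in blue. Points are the 4 spots and bars their mean; miR-74 has no overlap between the array means of the genotypes, whereas 1 fem-3(q20ts) array of miR-72 and of miR-73 reaches the lowest fem-2(b245ts) array.

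Differences are fem-3(q20ts) minus fem-2(b245ts) on the log2 scale, after values under 12.8, the 10th percentile of the positive spots, were set to it. They were tested two-sided with limma over the 94 miRNA oligos above the level of the Buffer spots, with p-values adjusted by Benjamini-Hochberg and called below 0.05. miR-72 averaged 1652 ± 110 in fem-3(q20ts) and 2105 ± 14.9 in fem-2(b245ts) (SD, n = 2 each). The difference came to -0.35 ± 0.29 (SE), a ratio of 0.787 with a 95% interval of 0.470 to 1.32 (adjusted p = 0.625 in limma). miR-73 averaged 1001 ± 86.6 in fem-3(q20ts) and 1387 ± 146 in fem-2(b245ts) (SD, n = 2 each). For this miRNA the difference was -0.45 ± 0.30 (SE), a ratio of 0.730 with an interval of 0.432 to 1.23 (adjusted p = 0.556 in limma). miR-74 averaged 326 ± 29.4 in fem-3(q20ts) and 457 ± 23.2 in fem-2(b245ts) (SD, n = 2 each). Here the difference was -0.50 ± 0.29 (SE), a ratio of 0.708 with an interval of 0.419 to 1.19 (adjusted p = 0.489 in limma). All 3 intervals include 1, and their lower ends reach a ratio below 0.5. In whole animals, fewer cells of a type and less RNA per cell cannot be told apart.

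Of the 94 miRNA oligos tested, 7 (7.45%) were called lower in fem-3(q20ts) by the adjusted p, and 0 of the 3 members were among them. At an unadjusted limma p under 0.05 there were 8 lower and 2 higher, again with 0 members. These unadjusted counts moved with the setting, to 14 lower and 14 higher with the replicate block, 7 and 17 after quantile normalization, 7 and 16 after median centring, and 15 and 1 when scaled to the miRNA oligos outside miR-35 to miR-42. In the last of these miR-74 had an unadjusted p of 0.046 in limma (adjusted p = 0.281). The 7 called lower are miR-35 to miR-41, the cluster known from oocytes and embryos, which serves here to check the genotype labels. Their summed intensity was 314, 347 and 455 on the fem-3(q20ts) arrays and 9192, 10789 and 12904 on the fem-2(b245ts) arrays. On the fem-3(q20ts) arrays 4, 3 and 6 of the 7 were above the Buffer level, against all 7 on each fem-2(b245ts) array. Some of their fem-3(q20ts) values were thus at the level of blank spots, which limits how well the size of their differences is known. By contrast, the differences of miR-72, miR-73 and miR-74 lay within 0.50 of zero on the log2 scale.

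Other, weaker criteria were met more often by all oligos too. The biological replicates did not overlap and were lower in fem-3(q20ts) for 3 of 3 members, against 17 of the 94 tested oligos (18.1%). All 3 fem-3(q20ts) arrays were below all 3 fem-2(b245ts) arrays for 1 of 3 members and for 12 of 94 oligos (12.8%). The difference was negative in both replicates for 3 of 3 members and for 29 of 94 oligos (30.9%). The median difference of the 3 members was -0.45, beside a median of 0.14 over all 94. In the order of differences from the lowest, miR-74 was at place 17, miR-73 at place 18 and miR-72 at place 23.

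**Figure D2:**
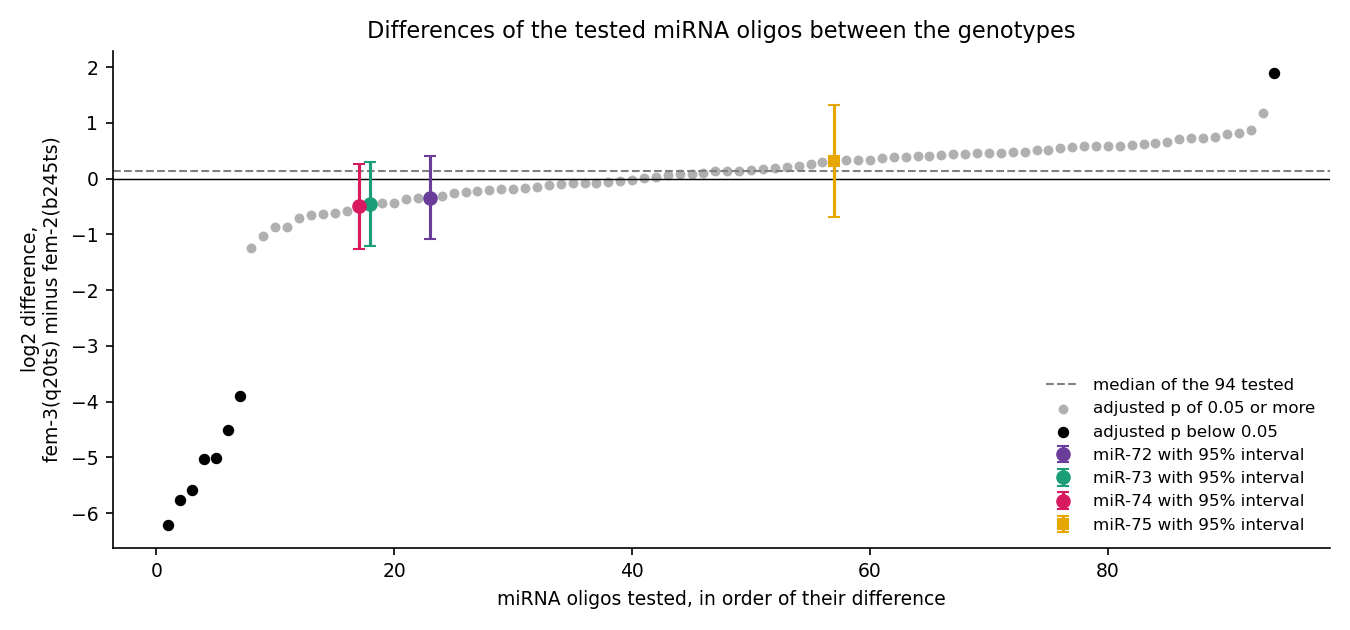
log2 differences, fem-3(q20ts) minus fem-2(b245ts) (y axis), of the 94 tested miRNA oligos in order of size (x axis), black where the limma adjusted p is below 0.05. miR-74, miR-73, miR-72 and miR-75 are coloured, with 95% intervals that all include 0; the 3 members lie below the dashed median of 0.14.

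Within each replicate number the 3 miRNAs were also lower in fem-3(q20ts). The arrays of replicate 1 share one number in their descriptions across the genotypes and those of replicate 2 another, whose meaning the labels do not state. The log2 difference of miR-72 was -0.27 in replicate 1 and -0.42 in replicate 2. That of miR-73 was -0.48 in replicate 1 and -0.43 in replicate 2. That of miR-74 was -0.45 in replicate 1 and -0.55 in replicate 2. All 12 member spots, taken singly, were lower in fem-3(q20ts) in both replicates. Spots of other oligos were not counted in this way, and as whole oligos 29 of the 94 tested (30.9%) were lower in both. The differences of the member spots were -0.40 to -0.28 for miR-72, -0.60 to -0.31 for miR-73 and -0.58 to -0.37 for miR-74. Spots of one oligo share their array and are not replicates.

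The 4 spots of miR-73 had a fixed order of brightness. In order of spot number the intensity increased at each step on 6 of 6 arrays, and the last spot was 1.19 to 1.86 times as bright as the first. Of the 108 miRNA oligos, 3 did so on all arrays and 0 decreased at each step on all arrays. For miR-74 the order ran the other way, with a decrease at each step on 3 of 6 arrays and the last spot at 0.645 to 0.908 times the first. For miR-72 the same ratio was 0.663 to 1.03. The order of miR-73 was common to both genotypes. Its first spot still had a log2 difference of -0.31 between them, and its last spot one of -0.56. These orders were looked at after the values were seen.

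**Figure D3:**
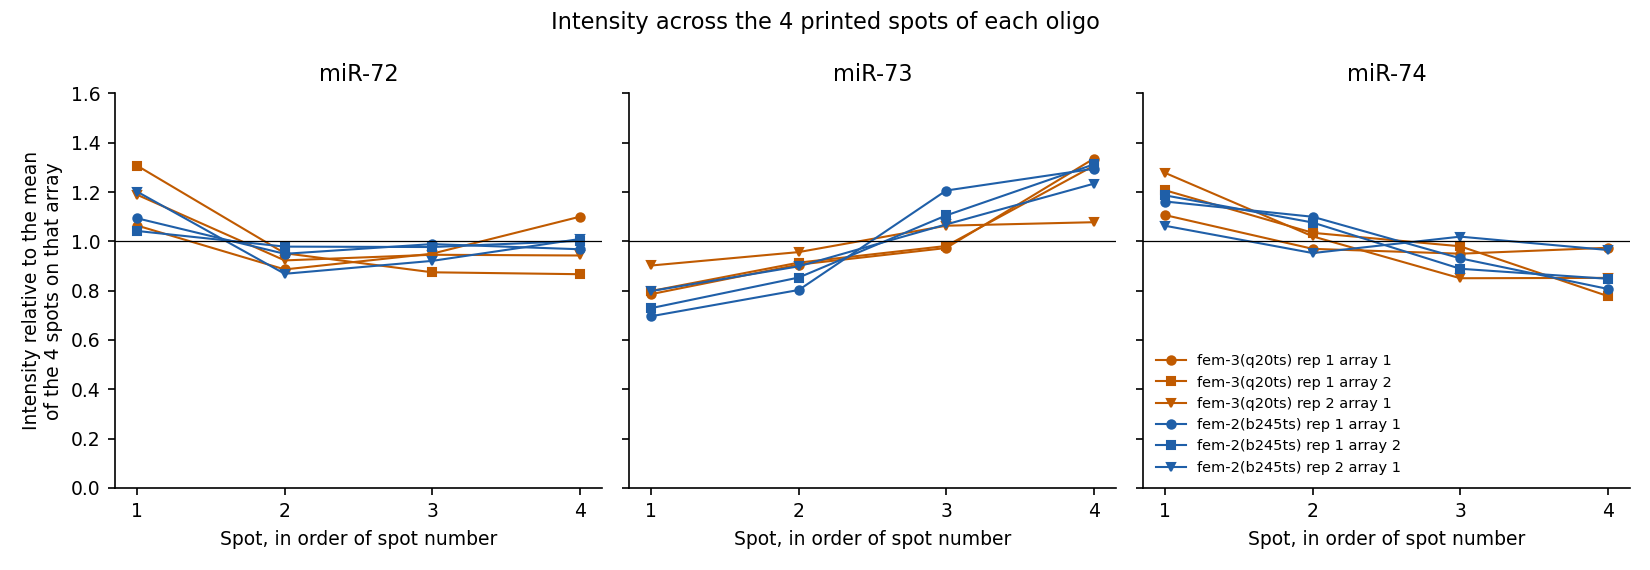
Intensity of each spot relative to the mean of the 4 spots on that array (y axis, from 0) in order of spot number (x axis) for miR-72, miR-73 and miR-74, with 1 line per array, fem-3(q20ts) in orange and fem-2(b245ts) in blue. The lines of miR-73 climb on all 6 arrays.

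With the authors' scaling, the agreement between replicates was closer for these miRNAs than for most oligos. Their pooled SD between biological replicates was 0.066 for miR-72, 0.11 for miR-73 and 0.10 for miR-74 on the log2 scale, against a median of 0.37 over the 94 tested. Only 7 of the other 91 had a pooled SD below that of miR-73. Replicate 1 minus replicate 2 had a median over the 94 of -0.26 in fem-3(q20ts) and -0.32 in fem-2(b245ts). For miR-72, miR-73 and miR-74 it was 0.13, 0.13 and 0.19 in fem-3(q20ts) and -0.03, 0.17 and 0.09 in fem-2(b245ts). The closeness therefore depends on the scaling between arrays. limma moves each variance towards the one shared by all oligos, which here gave the members standard errors of 0.29 to 0.30. With 2 samples a genotype, an exact permutation test of a single miRNA cannot give a two-sided p below 0.333.

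For miR-72 and miR-73, at least 1 pair of arrays of the same RNA differed by more than the genotypes did, and for miR-74 both pairs differed by less. In log2 intensity, miR-72 differed by 0.18 between the technical arrays of fem-3(q20ts) replicate 1 and by 0.51 between those of fem-2(b245ts) replicate 1. For miR-73 the same values were 0.54 in fem-3(q20ts) and 0.46 in fem-2(b245ts), all as array 1 minus array 2. For miR-74 they were -0.28 in fem-3(q20ts) and 0.19 in fem-2(b245ts). The first fem-2(b245ts) array was thus the brighter of its pair for all 3 members. Over the 94 oligos the median of this fem-2(b245ts) difference was 0.04 with sign and 0.41 without regard to sign. For the fem-3(q20ts) pair the median without regard to sign was 0.24. Differences near the members' size were thus common between the fem-2(b245ts) arrays, and the median of the fem-3(q20ts) pair was smaller than all 3. On the first fem-2(b245ts) array the miR-73 spots also had a signal-to-noise score as low as 3.03, against 49.1 or more on the other 3 arrays with scanner values. With the second technical arrays alone, the differences were -0.26 for miR-72, -0.47 for miR-73 and -0.38 for miR-74. With the first alone they were -0.43, -0.44 and -0.61 in the same order.

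As a share of the summed miRNA signal, the 3 members together made up 3.83% and 3.24% on the arrays of fem-3(q20ts) replicate 1 and 2.96% on that of replicate 2. In fem-2(b245ts) the share was 6.04% and 4.50% on the arrays of replicate 1 and 4.13% on that of replicate 2. The summed shares do not overlap. Those of miR-73 alone do, with 1.42% on the first fem-3(q20ts) array and 1.38% on the array of fem-2(b245ts) replicate 2. Shares of the other oligos were not compared in this way. By intensity, the arrays did not overlap and were lower in fem-3(q20ts) for 12 of the 94 tested oligos (12.8%). miR-35 to miR-41 enter the same sum with 0.353% to 0.478% in fem-3(q20ts) and 11.8% to 14.2% in fem-2(b245ts). Scaled to the miRNA oligos outside miR-35 to miR-42, the differences were -0.67 for miR-72, -0.78 for miR-73 and -0.82 for miR-74, and none passed (limma adjusted p of 0.281 to 0.393).

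The sign of the differences depended on the scaling. The oligo that the layout names spike control was itself lower in fem-3(q20ts), with 2622, 3107 and 2056 on its arrays against 4695, 3461 and 3171 in fem-2(b245ts), a log2 difference of -0.56. No source used here says what was spiked in or at which step. Relative to this oligo the differences became 0.22 for miR-72, 0.11 for miR-73 and 0.06 for miR-74. With each array centred on its median miRNA oligo, miR-72 was at 0.00064, miR-73 at -0.11 and miR-74 at -0.15. These scalings move all miRNAs of an array together, and the median of all 94 moved with them to 0.70 and 0.48. The distance of the members from the median of the tested oligos cannot change when an array is scaled by 1 factor. That distance was not computed for the filter that kept only oligos above the Buffer level on all arrays. In the 12 of the other 21 alternatives that gave it another value, all 3 members lay below the median of the tested oligos. The distance of their median from it was -0.59 with the authors' scaling, -0.91 when replicate 2 of fem-2(b245ts) was left out and -0.37 when its replicate 1 was left out.

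**Figure D4:**
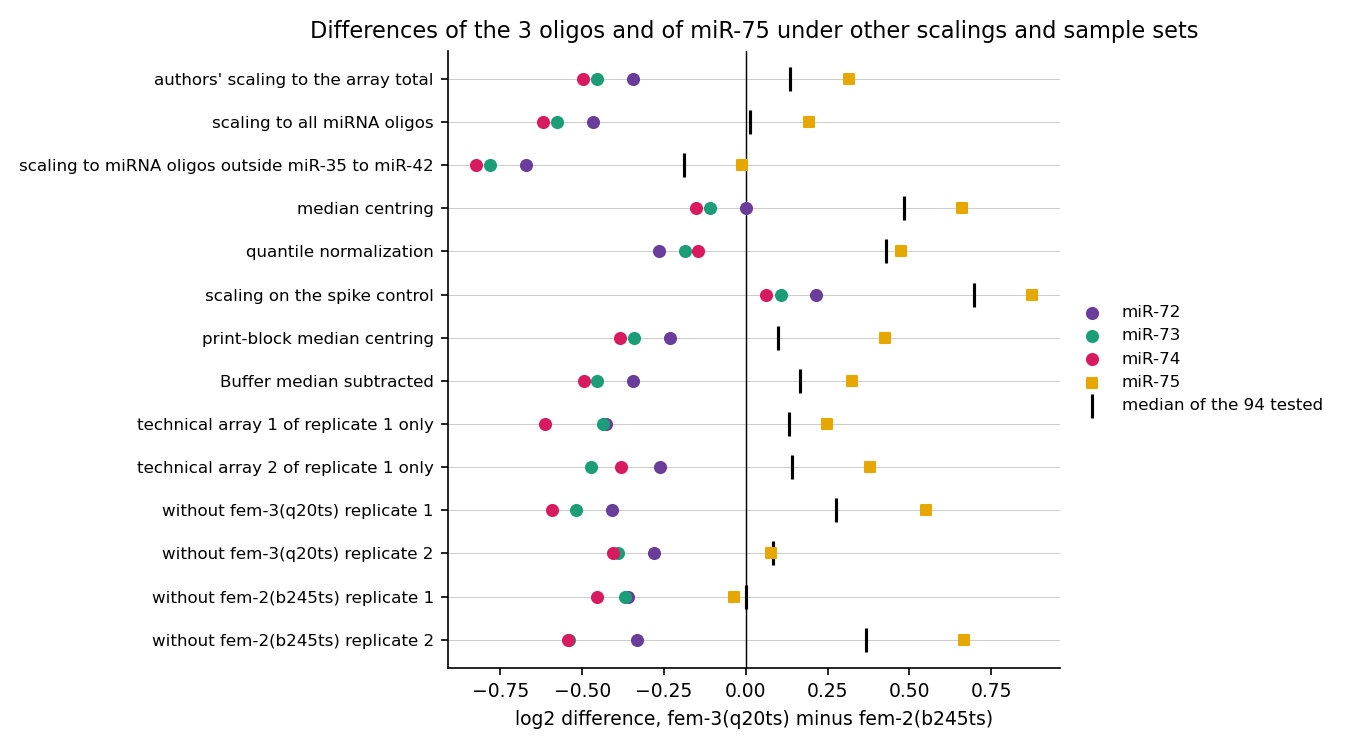
log2 differences, fem-3(q20ts) minus fem-2(b245ts) (x axis), of miR-72, miR-73, miR-74 and miR-75 under 14 scalings and sample sets (y axis), with the median of the 94 tested oligos as a black bar. The 3 members are above 0 on the spike control, miR-72 is at about 0 under median centring, and all 3 stay left of the black bar in every row.

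Whether the members differed from one another was asked within each array, where scaling by 1 factor cancels. The log2 difference of miR-72 exceeded that of miR-73 by 0.11, with 0.21 in replicate 1 and 0.0097 in replicate 2. It exceeded that of miR-74 by 0.15, with 0.18 in replicate 1 and 0.12 in replicate 2. The difference of miR-73 exceeded that of miR-74 by 0.04, with -0.03 in replicate 1 and 0.12 in replicate 2. The exact two-sided permutation p-values were 0.333, 0.333 and 0.667 (0.5, 0.5 and 0.667 after Benjamini-Hochberg adjustment over the 3 pairs), where 0.333 is the smallest possible. All 3 values turned negative after quantile normalization, at -0.08, -0.12 and -0.04. This test could therefore not show a difference in response between miR-72, encoded on chromosome II, and the miRNAs of chromosome X.

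miR-75, encoded next to mir-73 and mir-74 on chromosome X, had a difference of the other sign. Its seed is not that of the 3 members, as background. It had an intensity of 944 and 888 on the arrays of fem-3(q20ts) replicate 1 and 1260 on that of replicate 2. In fem-2(b245ts) it was 763 and 593 on the arrays of replicate 1 and 1098 on that of replicate 2. The genotypes overlap, and the replicates of one genotype lie further apart than the genotype means. Its log2 difference of 0.31 (SE 0.39; limma adjusted p = 0.757) did not pass, and it was -0.01 after scaling to the miRNA oligos outside miR-35 to miR-42 and -0.04 without fem-2(b245ts) replicate 1.

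Within each array, the difference of miR-73 lay below that of miR-75 by -0.77, with -0.91 in replicate 1 and -0.63 in replicate 2. The difference of miR-74 lay below it by -0.81, with -0.88 in replicate 1 and -0.75 in replicate 2. For miR-73 minus miR-75 the biological replicates were at 0.18 and -0.42 in fem-3(q20ts) and at 1.09 and 0.22 in fem-2(b245ts). For miR-74 minus miR-75 they were at -1.40 and -2.06 in fem-3(q20ts) and at -0.52 and -1.31 in fem-2(b245ts). In both pairs the genotypes did not overlap but came close to touching, and pairs of other oligos were not counted. The exact two-sided permutation p of 0.333 (0.333 adjusted over these 2 pairs) is the smallest the design allows. These pairs were added after the values were seen. Scaling by 1 factor, the block and the floor cannot change them. In the 11 of 22 alternatives that gave another value they were negative, between -1.21 and -0.33 for miR-73 and between -1.21 and -0.42 for miR-74, the lower ends without fem-2(b245ts) replicate 2 and the upper ends without its replicate 1. With the authors' scaling, the neighbouring genes of chromosome X thus held 2 miRNAs with lower and 1 with higher mean signal in fem-3(q20ts). None of these differences passed, and their signs depended on the scaling. Relative to the spike control they were all positive, at 0.11 for miR-73, 0.06 for miR-74 and 0.88 for miR-75. Scaled to the miRNA oligos outside miR-35 to miR-42 they were all negative, at -0.78, -0.82 and -0.01 in the same order.

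Likeness of pattern was measured as the root-mean-square difference of log2 intensity over the 6 arrays, after each oligo's own mean was subtracted, among the 91 tested oligos outside the family. miR-66 was closest to miR-72 (0.15) and to miR-73 (0.20), and miR-71 was closest to miR-74 (0.24). miR-71 (0.19) and miR-70 (0.26) came next for miR-72, miR-70 (0.21) and miR-76 (0.27) for miR-73, and miR-66 (0.26) and miR-239b (0.29) for miR-74. The members were about as close to one another, at 0.14 between miR-72 and miR-73, 0.19 between miR-72 and miR-74 and 0.25 between miR-73 and miR-74. The median distance to all 91 was 0.51 for miR-72, 0.60 for miR-73 and 0.56 for miR-74, and miR-75 was at 0.45, 0.55 and 0.55 from them in that order. All distances share the same arrays and scaling. The genotype differences of these 5 neighbours ranged from -0.70 for miR-70 to -0.05 for miR-71, and none passed.

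Position on the slide was looked at beside this likeness, and distances were not compared between blocks. The members, miR-75 and 4 of the 5 pattern neighbours, all but miR-239b, were printed in the same of the 4 print blocks. That block held 16 of the 91 oligos compared. One of them, miR-75, was at 0.45, 0.55 and 0.55 from miR-72, miR-73 and miR-74. The 16 tested oligos of that block outside the family, miR-75 and these 4 neighbours included, had a median difference of -0.08, with 11 lower and 5 higher in fem-3(q20ts). Without miR-75 and the neighbours, 11 oligos remained, with 7 lower and 4 higher and again a median of -0.08. The tested oligos outside the family had medians of 0.41, -0.11 and 0.20 in the other blocks. With each array centred on its own print block, the differences were -0.23 for miR-72, -0.34 for miR-73 and -0.39 for miR-74, and 0.43 for miR-75. That setting was added after the data were seen and gives values without a test. The part of slide position in the differences was not tested further.

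Markers of somatic tissue were measured beside these miRNAs, since the animals were whole. Of 7 listed markers, 6 had an oligo, lsy-6 being the one without, and all 6 were above the Buffer level on every array. Their summed intensity was 3478, 4043 and 4773 on the fem-3(q20ts) arrays and 2624, 3119 and 3598 on the fem-2(b245ts) arrays, where single arrays overlap. Averaged into biological replicates it was 3760 and 4773 in fem-3(q20ts) and 2872 and 3598 in fem-2(b245ts), without overlap. It was higher in fem-3(q20ts) in both replicate numbers, whereas the 3 members were lower. Higher was also the more common direction: 54 of the 94 tested oligos were higher and 40 lower, with a median difference of 0.14. How many of them were higher without overlap was not counted. The differences of the markers ranged from -0.17 for miR-1, known from muscle, to 1.18 for lin-4, the heterochronic miRNA. None of the 6 passed the test (limma adjusted p of 0.299 to 0.909). The part of tissue composition in the values of miR-72, miR-73 and miR-74 was not tested.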

How the data were processed

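Per the labels, short RNAs were gel-purified, ligated to a Cy3 oligonucleotide and hybridised to 1-colour spotted arrays. The value table holds linear spot intensity that the authors scaled on the total of each array. On the 4 arrays with scanner files, the deposited normalized intensity times 1 factor gave the table to within 0.1% for all 48 member spots. The scanner files also give, per the file headers, a signal-to-noise score and the percent of saturated pixels. The scanner software is not given in the sources used here. Names of spots were joined by spot number, and the replicate 2 arrays take their layout from the scanner files of replicate 1.

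Any spot below 12.8, the 10th percentile of all positive spots, was set to it before log2 was taken, and the 4 spots of an oligo were averaged. Technical arrays were then averaged into 4 biological samples. An oligo was tested if its mean exceeded the averaged 95th percentile of the Buffer spots (37.2), which kept 94 of 108 miRNA oligos and all 3 members. Genotypes were compared in R 4.3.3 with limma 3.58.1, using lmFit and then eBayes (2 residual and 3.05 prior degrees of freedom). A check on simulated data used changes far larger than those of the members, so it does not cover changes of their size. Exact permutation tests used scipy 1.17.1. The labels call the replicates biological but do not say that they came from separate cultures, so p-values measure the spread between these samples, which may be partly technical. The number of arrays limits the precision.

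Samples with the same replicate number were read as pairs for the replicate block, an alternative, because their descriptions share a number that the labels do not explain. The deviation of replicate 1 from replicate 2 had r = 0.711 between fem-3(q20ts) and fem-2(b245ts) across the 94 oligos, which are not independent. The reported fit and the permutation tests have no block and do not use the pairs. The members and lists were chosen with earlier results of these data known. Named besides the members were every miRNA whose gene lies within 10 kb of theirs and, for each member, the 3 tested oligos of smallest root-mean-square distance. Seed relatives were to be found from mature sequences and were not analysed here. Alternatives were other scalings, floors, filters, arrays and sample sets.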

Additional observations from a re-analysis of the deposited data

How the results depend on the processing

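No setting brought a member past the threshold. The lowest limma adjusted p-values came with the replicate block, at 0.264 for miR-72, 0.182 for miR-73 and 0.163 for miR-74, with unchanged differences. The differences were below 0 in 20 of 22 alternatives for miR-72 and in 21 of 22 for miR-73 and for miR-74; 16 of the 22 gave a value other than the reported one. The exceptions were the spike control (0.22, 0.11 and 0.063) and, for miR-72, median centring (0.00064). Values without a test were -0.23, -0.31 and -0.13 when replicate 1 was taken from its scanner files (normexp, then quantile), and -0.23, -0.34 and -0.39 with print-block centring. Leaving out 1 biological sample gave -0.41 to -0.28 for miR-72, -0.54 to -0.37 for miR-73 and -0.59 to -0.40 for miR-74, with the lone sample of a genotype assumed to vary like the others.

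Between members, the excess of miR-72 over miR-73 was -0.080 after quantile normalization. That of miR-72 over miR-74 was -0.12 after quantile normalization and -0.10 from the scanner files. That of miR-73 over miR-74 was -0.040 and -0.18 in these settings, and -0.092 with the second technical arrays alone. The cause was not tested. miR-75 was at -0.012 after scaling to the miRNA oligos outside miR-35 to miR-42, and it ranged from -0.038 to 0.67 when 1 sample was left out. Over all miRNAs, the 7 calls lower in fem-3(q20ts) were 3 among the 59 oligos above the Buffer level on all arrays. There was 1 call higher, miR-243, named after its value was seen, against 2 calls with the replicate block and 0 calls in limma without any 1 biological sample, where 1 or 2 had an unadjusted p under 0.05 and were higher.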
